A study of Mus musculus with 16 samples.

Results

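The genes described here are 9 members of the insulin, FOXO and mTOR pathway: the receptors Insr and Igf1r, the adaptor Irs2, the kinase Akt1, the transcription factors Foxo1 and Foxo3, the kinase Mtor, and its partners Rptor and Rictor. They were taken by symbol as a fixed list of pathway components, chosen with earlier results of these data known. All 9 were found among the 24015 rows of the deposited table. Their RNA was measured in microglia, the resident macrophages of the brain, from the hippocampus of aged and young mice. The aged group held 6 samples from mice of 20 months and the young group 6 samples from mice of 3 months. No treatment, transgene or mutation is named for either group. The strain label is C57BL/6 for 10 of the 12 samples. It is C57BL/7 for aged 5, and C57BL/8 and C57BL/9 for the libraries of aged 6. The last digit rises from library to library in this order, and the labels alone cannot tell whether these mice differ in strain. Cells were sorted alive as CD11b+CD45lo after perfusion and dissection of the hippocampus. Whether a sample came from 1 mouse or from several is not stated, so p-values refer to the spread among these samples. In such bulk samples, fewer cells of a type and less RNA per cell cannot be told apart.

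Insulin and insulin-like growth factors bind the receptor tyrosine kinases Insr and Igf1r, which phosphorylate adaptors such as Irs2 and so recruit PI3-kinase. The lipid it makes brings AKT to the membrane, and active AKT phosphorylates FOXO factors, which keeps them out of the nucleus. AKT also relieves the TSC brake on Rheb and so activates mTORC1, the complex of mTOR with Raptor that promotes protein synthesis and restrains autophagy, while mTORC2, the complex with Rictor, phosphorylates AKT in turn. Reduced signalling through this pathway lengthens life in worms, flies and mice. Most of this control acts on protein phosphorylation and location, which RNA levels do not measure.

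The values are normalized counts, that is, read counts scaled by the authors for library depth. In the 8 samples with 1 library, whole reads could be recovered, and depth was 24.2 to 31.6 M reads in the 4 aged samples and 11.4 to 47.3 M in the 4 young samples, lowest in young 1. The other 4 samples, aged 3, aged 6, young 2 and young 4, combine 2 libraries each. All 10 microglia markers were present, and their summed level was 61100 to 66900 CPM (normalized counts scaled to the same total in each sample) in aged samples and 66600 to 72200 in young samples (exact permutation test, two-sided p = 0.0043). The summed level of 6 monocyte markers was 4.1 to 5.86 CPM in aged samples and 2.11 to 4.48 in young samples (exact permutation p = 0.0043), with none of the markers at 0 throughout. The 6 choroid plexus markers summed to 16.5 to 132 CPM in aged samples and 9.95 to 49.3 in young samples (exact permutation p = 0.056). These lists had the smallest p of all cell type lists checked, and the p-values are not adjusted. Among single markers, the limma test described below called 1 of 10 tested for microglia and 1 of 3 for astrocytes, against 1.73% of all tested genes. It called no tested marker of the other lists. The largest sums outside microglia were those of astrocyte markers, 213 to 277 CPM in aged and 206 to 258 in young samples (exact permutation p = 0.29). Next to them were oligodendrocyte markers, 223 to 263 CPM in aged and 220 to 259 in young samples (exact permutation p = 0.25). The part of these cell types in the values of the pathway genes was not tested.

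All 9 members were expressed in aged and in young microglia, and none passed the test for a difference with age. Foxo3, Irs2 and Insr had the largest differences. On average Foxo3 was 1.45-fold and Irs2 1.26-fold as high in aged as in young samples, and Insr 0.845-fold. Each of these intervals included no change. Akt1, Foxo1, Mtor, Rptor and Rictor differed by less than 6% in their fitted means. The test was limma on log2 of the normalized count plus 1, two-sided, adjusted by Benjamini-Hochberg over 11579 genes with at least 10 normalized counts in 6 or more samples. All 9 members passed that filter. Called at an adjusted p under 0.05 were 0 of 9 members, against 200 of all tested genes (1.73%). At an unadjusted p under 0.05 the count was also 0 of 9, against 1253 genes (10.8%). On the recovered reads of 8 samples, edgeR called 0 of 9 members, against 90 genes (0.772%), and DESeq2 called 0 of 9, against 235 genes (2.02%). The values of aged and young samples overlapped for all 9 members, while 217 genes (1.87%) had groups without overlap. The median log2 fold change was 0.05 over the members and 0.00 over all tested genes.

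**Figure D1:**
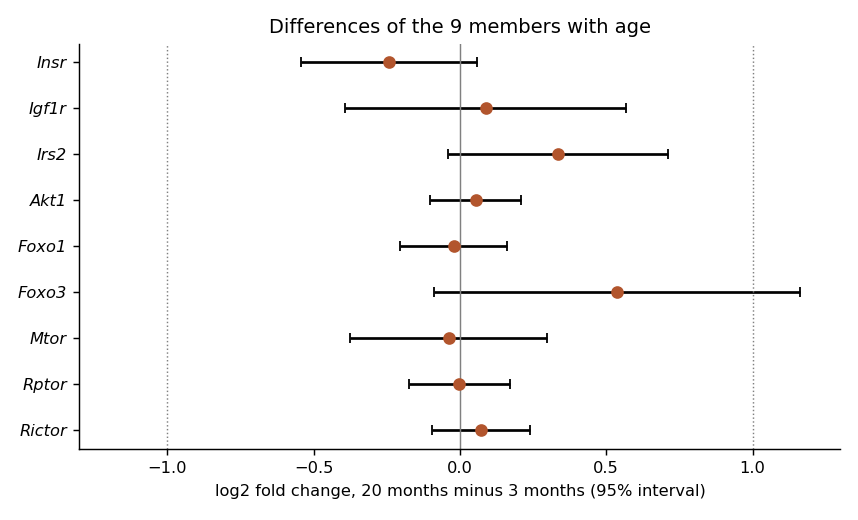
Fitted log2 fold change of each member, 20 months minus 3 months, on the log2(normalized count + 1) scale; points are limma estimates from 6 samples per age and bars their 95% intervals, with dotted lines at a 2-fold change. All 9 intervals include 0, and only that of Foxo3, which reaches 1.16, extends past a 2-fold change.

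Insr (chr8:3122061-3279617, minus strand; coordinates of all genes are from GENCODE M21 on GRCm38, which is mm10) encodes the insulin receptor. Its normalized count ranged from 315 to 556 with a median of 506 in aged samples, and from 459 to 631 with a median of 521 in young samples. Aged 1 and aged 5 lay below every young sample and young 3 and young 4 above every aged sample, while the other 8 samples overlapped. Insr averaged 462 ± 101 in aged and 538 ± 61.8 in young samples (SD, n = 6 each), a log2 fold change of -0.24 (95% interval -0.54 to 0.06, limma adjusted p = 0.62). The interval leaves room for a level between 0.686 and 1.04 times that of young samples.

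Igf1r (chr7:67952827-68233668, plus strand) encodes the receptor of insulin-like growth factor 1, which shares the signalling adaptors of the insulin receptor. Counts of Igf1r ranged from 296 to 554 with a median of 401 in aged samples, and from 208 to 581 with a median of 379 in young samples. Young 3 lay below and young 2 above all aged samples, so the aged range fell within the young one. The means were 412 ± 105 in aged and 401 ± 147 in young samples (SD, n = 6 each), with a log2 fold change of 0.09 (95% interval -0.39 to 0.57, limma adjusted p = 0.942). Its sign turned without aged 1, to -0.01, and without young 3, to -0.08.

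Irs2 (chr8:10984681-11008458, minus strand) encodes the adaptor that docks PI3-kinase to both receptors, and it had the smallest p of the members. Irs2 counts ranged from 1158 to 1594 with a median of 1362 in aged samples, and from 698 to 1493 with a median of 1146 in young samples. Young 3, young 5 and young 6 lay below every aged sample, at 749, 918 and 698, while young 1, young 2 and young 4 were at 1493, 1483 and 1375, within the aged range. The coefficient of variation was 12.3% in aged and 33.2% in young samples. Irs2 averaged 1353 ± 166 in aged and 1119 ± 372 in young samples (SD, n = 6 each), a log2 fold change of 0.34 (95% interval -0.04 to 0.71, limma adjusted p = 0.548). Irs2 shares 162 exon bases with the opposite-strand transcript 9530052E02Rik, whose reads cannot be told apart in these unstranded libraries.

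**Figure D2:**
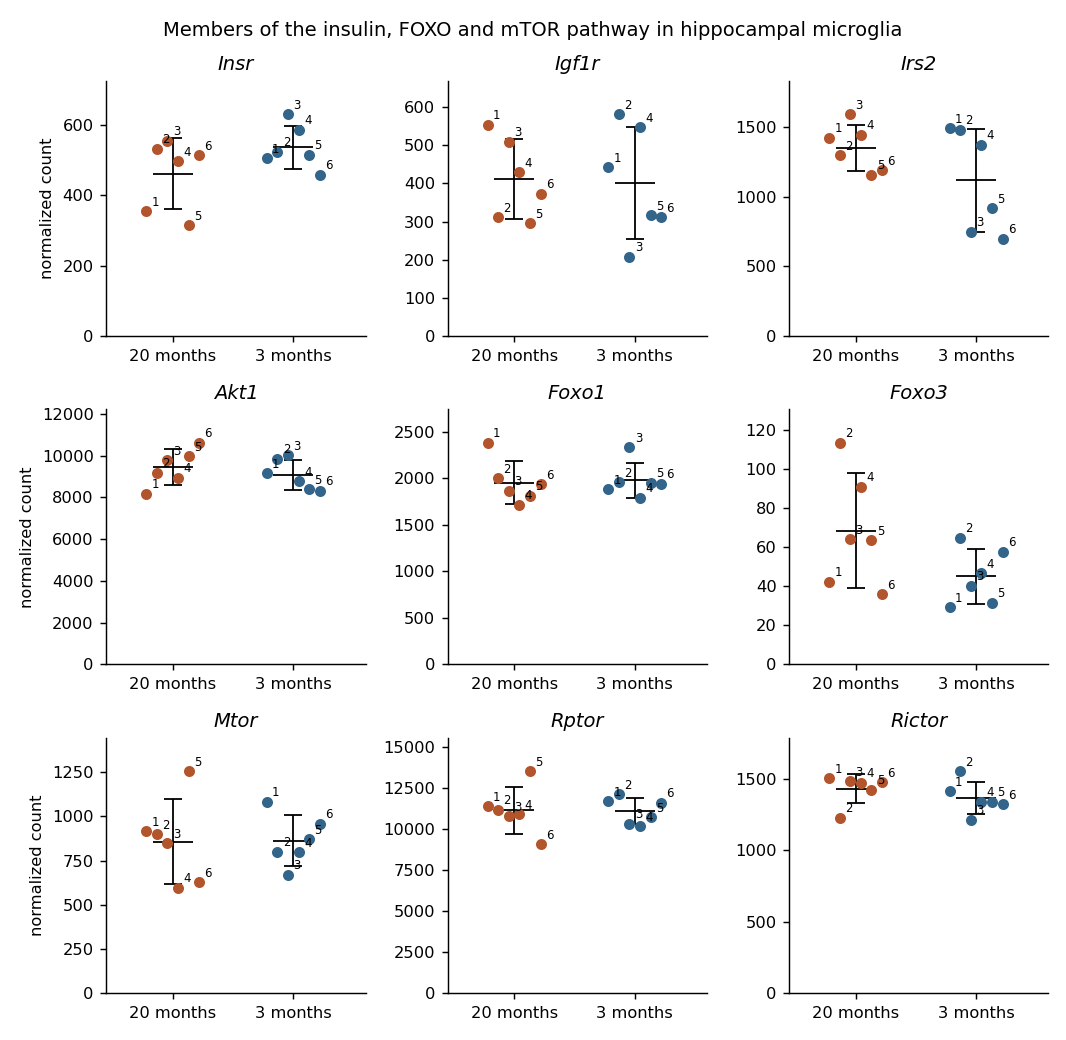
Normalized counts of the 9 members in each sample (vertical axes start at 0), with aged samples left and young samples right in each panel; digits give the replicate number, and bars the mean ± SD over 6 samples. The groups overlap in every panel, and in the Irs2 panel the 6 aged samples lie between 1158 and 1594, above 3 young samples at 698 to 918.

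Akt1 (chr12:112653821-112674884, minus strand) encodes the AKT isoform that carries the signal from PI3-kinase to FOXO and mTORC1. Akt1 had normalized counts that ranged from 8169.5 to 10613 with a median of 9481 in aged samples, and from 8325 to 10007 with a median of 8962 in young samples. Aged 6 was above and aged 1 below all young samples. The means were 9440 ± 860 in aged and 9082 ± 722 in young samples (SD, n = 6 each), with a log2 fold change of 0.05 (95% interval -0.10 to 0.21, limma adjusted p = 0.887). This interval spans 0.933- to 1.16-fold.

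Foxo1 (chr3:52268336-52353221, plus strand) encodes the FOXO factor with the higher RNA level of the pair. Its count ranged from 1715 to 2383 with a median of 1902 in aged samples, and from 1791 to 2337 with a median of 1949 in young samples. A single sample stood high in each group, aged 1 and young 3, and aged 4 lay below all young samples. The log2 fold change was -0.02 (95% interval -0.21 to 0.16, limma adjusted p = 0.963), for means of 1953 ± 232 in aged and 1979 ± 187 in young samples (SD, n = 6 each). Foxo1 shares 674 exon bases with the antisense transcript Gm20402, which has no row in the table.

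Foxo3 (chr10:42181841-42276755, minus strand), the FOXO gene associated with human longevity, was the lowest member. The Foxo3 count ranged from 35.9 to 114 with a median of 63.9 in aged samples, and from 29.5 to 65.0 with a median of 43.6 in young samples. Aged 2 and aged 4 lay above every young sample, and young 1 and young 5 below every aged sample. Foxo3 averaged 68.5 ± 29.4 in aged and 45.2 ± 14.2 in young samples (SD, n = 6 each), with the largest fitted difference of the members, a log2 fold change of 0.54 (95% interval -0.09 to 1.16, limma adjusted p = 0.578). It was also the least precisely counted member, with 49 to 113 recovered reads in the 4 aged samples with 1 library and 12 to 62 in the 4 young ones. The 12 reads were in young 1, the shallowest sample.

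Mtor (chr4:148448611-148557683, plus strand) encodes the kinase shared by mTORC1 and mTORC2. Its count ranged from 597 to 1256 with a median of 873 in aged samples, and from 670.4 to 1083 with a median of 835 in young samples. Aged 5 was above every young sample and aged 4 and aged 6 below every one, so the aged samples spread to both sides of the young ones. The means were 857 ± 238 in aged and 863 ± 143 in young samples (SD, n = 6 each), with a log2 fold change of -0.04 (95% interval -0.37 to 0.30, limma adjusted p = 0.964).

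Rptor (chr11:119602905-119899576, plus strand) encodes Raptor, the scaffold that brings substrates to mTORC1. Its count ranged from 9096 to 13535 with a median of 11051 in aged samples, and from 10176 to 12136 with a median of 11161 in young samples. The aged samples again held both ends, aged 5 the highest of all 12 and aged 6 the lowest. Its log2 fold change was 0.00 with a 95% interval of -0.17 to 0.17 (limma adjusted p = 0.997), for means of 11150 ± 1424 in aged and 11113 ± 812 in young samples (SD, n = 6 each). Rptor shares 84 exon bases with the antisense transcript Rptoros.

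Rictor (chr15:6708379-6800401, plus strand) encodes the scaffold of mTORC2. Its count ranged from 1230 to 1506 with a median of 1478 in aged samples, and from 1217 to 1557 with a median of 1342 in young samples. In the aged group 5 samples lay between 1427 and 1506 and aged 2 stood apart at 1230, and the young range enclosed the aged one. Rictor averaged 1434 ± 104 in aged and 1366 ± 113 in young samples (SD, n = 6 each), a log2 fold change of 0.07 (95% interval -0.10 to 0.24, limma adjusted p = 0.859).

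The members spanned more than 100-fold in level per length of exon, a scale on which genes can be set against each other. Akt1 was the highest at 2304 normalized counts per kb of exon in aged and 2216 in young samples. Rptor followed at 828 per kb in aged and 825 in young samples, above every other member but Akt1 in all 12 samples. Foxo1 (225 per kb in aged, 228 in young) and Irs2 (214 in aged, 177 in young) were neighbours whose order changed between samples, with Foxo1 the higher in 7 of 12. Mtor (84.8 per kb in aged, 85.4 in young) and Rictor (84.7 in aged, 80.7 in young) likewise changed order, with Mtor higher in 6 of 12 samples. Below them came Insr at 33.6 per kb in aged and 39.1 in young samples, then Igf1r at 24.5 in aged and 23.9 in young samples, with Insr the higher in 11 of 12 samples. Foxo3 was last in all 12 samples, at 9.05 per kb in aged and 5.97 in young samples. The lengths are all annotated exons of a gene joined together, so they overstate the length of the transcripts in use where these hold fewer exons.

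**Figure D3:**
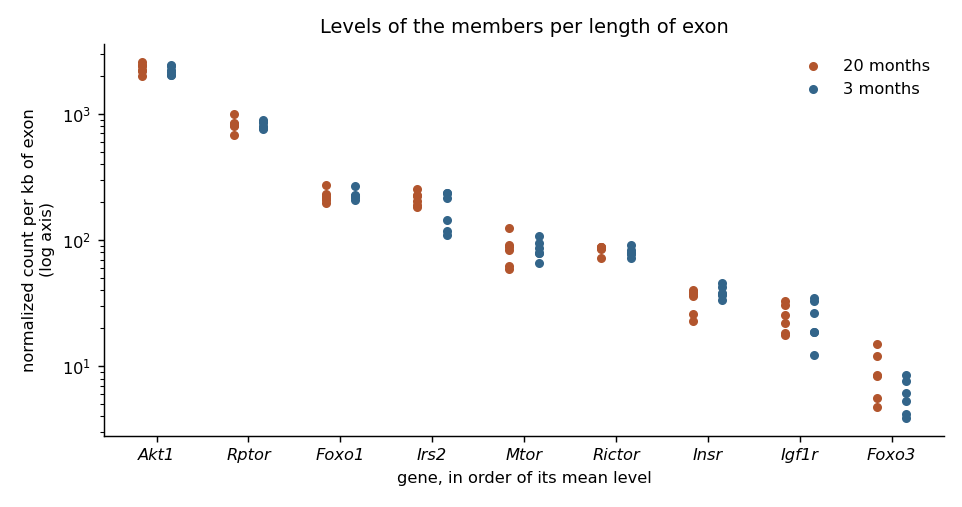
Normalized count per kb of exon (log axis) of the members in each of 12 samples, ordered by mean level, aged samples left of young samples for each gene. Akt1 and Rptor stand above the rest, Foxo1 with Irs2 and Mtor with Rictor share their ranges, and Foxo3 is lowest, at 9.05 per kb in aged and 5.97 in young samples.

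Ratios of paired members within a sample do not depend on how the libraries were scaled. The log2 ratio of Insr to Igf1r, the 2 receptors, was 0.17 ± 0.48 in aged and 0.50 ± 0.62 in young samples (SD, n = 6 each; difference -0.33, two-sided exact permutation p = 0.346, adjusted over 3 ratios 0.489). Aged 1 and young 2 were the samples with more Igf1r than Insr count. The ratio of Foxo1 to Foxo3 was 30.7 in aged and 45.5 in young samples (geometric means, n = 6 each; log2 difference -0.57, exact permutation p = 0.128, adjusted 0.383). Aged 2 and aged 4, the samples highest in Foxo3, had the lowest ratios. The ratio of Rptor to Rictor was 7.74 in aged and 8.14 in young samples, for a log2 difference of 0.07 in Rictor over Rptor (n = 6 each, exact permutation p = 0.489, adjusted 0.489). The log2 ratio of Rictor to Rptor spread over -3.24 to -2.62 in aged and -3.13 to -2.92 in young samples. With 6 samples per group, the smallest p this test can give is 0.0022.

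How the members varied from sample to sample within each age was compared pair by pair. Deviations of log2 values from the mean of the age were correlated over 12 samples for the 36 pairs of members, with exact permutation within each age, and no pair passed after adjustment over the 36. Igf1r and Irs2 had the highest correlation, with Pearson r = 0.845 (exact permutation p = 0.00388, adjusted 0.0919) and Spearman rho = 0.804 (p = 0.00846, adjusted 0.152). It was 0.808 within aged and 0.885 within young samples, and 0.76 without young 2 and young 3, the samples farthest out in Igf1r. The receptor and its adaptor were both low in young 3, young 5 and young 6 and both high in young 1, young 2 and young 4. For Igf1r and Rictor, r was 0.756 (exact permutation p = 0.0051, adjusted 0.0919) and rho 0.769 (p = 0.00487, adjusted 0.152), with 0.662 within aged, 0.832 within young and 0.553 without young 2 and young 3. Mtor and Rptor, the kinase and scaffold of mTORC1, had r = 0.768 (exact permutation p = 0.0145, adjusted 0.131) and rho 0.727, and both were highest in aged 5. Insr ran opposite to Rptor (r = -0.725, rho -0.643, adjusted exact permutation p = 0.115) and to Mtor (r = -0.711, rho -0.643, adjusted 0.224), with aged 5 the sample lowest in Insr. Without aged 1 and aged 5 these were -0.547 for Insr with Rptor and -0.497 for Insr with Mtor.

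**Figure D4:**
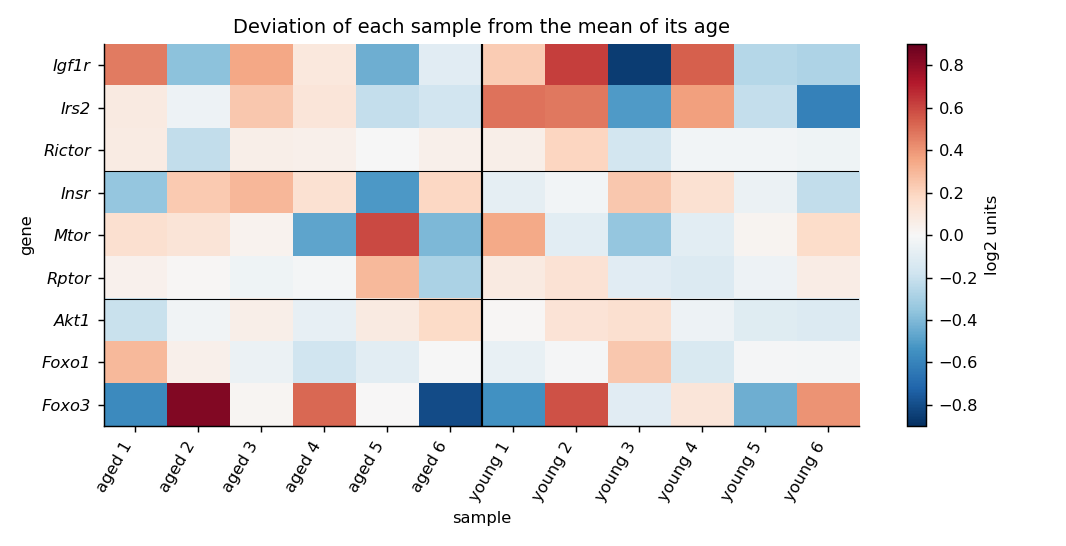
Deviation of each sample from the mean of its age, in log2 units (colour scale, red above and blue below), for the 9 members, aged samples left of the line and young samples right. Igf1r, Irs2 and Rictor are shown together at the top, and young 3 is low in all of them; Mtor and Rptor are both high in aged 5, where Insr is low.

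The genes most like Irs2 over the 12 samples were sought among 11578 other tested genes by Pearson r of log2 values, as a description. They were Bag6, a chaperone (r = 0.945, rho 0.846), Mfhas1, a leucine-rich repeat protein (r = 0.927, rho 0.909), and Ap2a1, an adaptor subunit of clathrin-coated vesicles (r = 0.918, rho 0.846). Igf1r came 64th of these genes with r = 0.8 and Rictor 407th with r = 0.636, so many genes outside the pathway followed Irs2 at least as closely.

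Since the 2 pairs with the smallest p joined Igf1r with Irs2 and with Rictor, the promoters of these 3 genes are shown: the 250 bases before the transcription start in RefSeq on GRCm38.p6, written 5′ to 3′ on the strand of the gene. RefSeq starts can differ from those of the gene models above. Bases just after the RefSeq start were found in a GENCODE transcript of the gene for Rictor, but not for Igf1r or Irs2. The Igf1r window is chr7:67952007-67952256 (plus strand), the Irs2 window chr8:11008930-11009179 (minus strand) and the Rictor window chr15:6708131-6708380 (plus strand). Capitals mark the GC box, GGGCGG on either strand, and the E box CACGTG.
Igf1r: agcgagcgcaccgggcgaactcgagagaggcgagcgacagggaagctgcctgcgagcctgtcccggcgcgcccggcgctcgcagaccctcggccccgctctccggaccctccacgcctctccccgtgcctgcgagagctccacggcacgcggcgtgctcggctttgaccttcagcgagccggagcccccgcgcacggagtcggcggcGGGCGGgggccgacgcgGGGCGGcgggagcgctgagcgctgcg
Irs2: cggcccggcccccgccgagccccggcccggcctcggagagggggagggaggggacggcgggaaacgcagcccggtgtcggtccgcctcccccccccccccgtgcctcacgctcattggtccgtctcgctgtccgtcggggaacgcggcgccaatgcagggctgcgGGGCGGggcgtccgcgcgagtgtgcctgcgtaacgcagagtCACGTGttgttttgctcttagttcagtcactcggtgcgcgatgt
Rictor: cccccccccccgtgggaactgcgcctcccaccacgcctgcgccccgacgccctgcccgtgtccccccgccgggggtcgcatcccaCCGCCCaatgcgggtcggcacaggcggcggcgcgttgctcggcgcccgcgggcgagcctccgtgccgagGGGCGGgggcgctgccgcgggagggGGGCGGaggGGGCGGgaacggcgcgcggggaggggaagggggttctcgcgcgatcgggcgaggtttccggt
All 3 windows are rich in G and C, at 77.6% for Igf1r, 72.8% for Irs2 and 81.2% for Rictor. The median over all 32851 promoters of the table is 52.4%. The Igf1r window holds 2 GC boxes, that of Irs2 holds 1 and that of Rictor 4, and Irs2 also has the E box. Among the 8 members with a promoter in the table (Insr was not matched), 7 had a GC box, which 32.7% of all promoters hold, and 1, Irs2, had CACGTG, which 6.02% hold. A member counted if any of its promoters held the motif (Akt1 has 2), while the shares are per promoter. The shares were not matched for G and C content. The forkhead motif TGTTTAC, searched on both strands, was found in 1 member, Akt1, against 3.17% of all promoters. The cAMP response element TGACGTCA was found in 0 members, against 1.55%. A match describes these letters in this window and is not a bound site.

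The other genes of the pathway were described from 10 lists, which hold 130 genes besides the members. Of these, 128 were in the table and 105 passed the filter on low values. None of the 105 passed the limma test at an adjusted p under 0.05, in either direction, and 12 had an unadjusted p under 0.05, which is 11.4% against 10.8% of all tested genes. Of the 12, 5 were higher in aged samples and 7 lower. On the recovered reads, edgeR called 0 of 105, against 0.772% of all genes it tested, and DESeq2 called 1 of 105, Bcl6, against 2.02%. The median log2 fold change was 0.04 over the 105 genes, and 5 of them differed by more than 1.5-fold in their fitted means: Igf1, Igfbp2, Igf2r, Bcl6 and Klf4.

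Ligands and binding proteins were mostly below the filter, with 4 of 13 tested and none called. Insulin itself, from Ins1 and Ins2, was listed at 0 in every sample except for up to 2.01 normalized counts of Ins2 in aged samples. Igf1, the growth factor ligand of Igf1r, averaged 17.8 ± 8.37 in aged and 30.8 ± 12.8 in young samples (SD, n = 6 each; log2 fold change -0.80, limma adjusted p = 0.46), with 3 aged samples below all young ones. Igfbp2, an IGF-binding protein, averaged 28.6 ± 21.8 in aged and 16.7 ± 13.3 in young samples (limma adjusted p = 0.79). Igfbp2 was highest in aged 5, at 62.6, which was also the sample highest in choroid plexus markers, and the part of that tissue was not tested. Igf2r, the receptor that clears IGF2, ranged from 0.918 to 63.4 in aged and from 2.46 to 20.9 in young samples.

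Among receptors and adaptors, 11 of 16 genes were tested, and their median difference on the log2 scale was 0.00. Irs3, an adaptor related to Irs2, averaged 127 ± 22.2 in aged and 85.1 ± 17.6 in young samples (SD, n = 6 each), a log2 fold change of 0.58 (95% interval 0.20 to 0.97, limma adjusted p = 0.157), and 5 of 6 aged samples lay above every young sample. The relatives Irs1, at up to 10.7 in aged and 3.38 in young samples, and Irs4 and Insrr, both listed at 0, were not tested, so Irs2 and Irs3 were the IRS genes that passed the filter. The docking proteins Gab1 and Gab2 had log2 fold changes of -0.07 and -0.13 (limma adjusted p = 0.876 and 0.837).

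The lipid kinases and AKT-family kinases, 15 of 15 tested, had a median of 0.00 on the same scale. Sgk1, a kinase of the AKT family that is activated through mTORC2, averaged 20396 ± 1783 in aged and 24493 ± 2900.4 in young samples (SD, n = 6 each), a log2 fold change of -0.26 (95% interval -0.43 to -0.09, limma adjusted p = 0.16), with 4 aged samples below all young ones. Pik3r1, a regulatory subunit of PI3-kinase, was at 3152 ± 283 in aged and 2725 ± 540.5 in young samples (limma adjusted p = 0.518). Of the brakes on this step, 9 of 10 were tested, with a median of 0.08. Inppl1, the lipid phosphatase SHIP2, had a log2 fold change of 0.28 (limma adjusted p = 0.359), Pik3ip1, an inhibitor of PI3-kinase, 0.22 (limma adjusted p = 0.571) and Inpp4b 0.11 (limma adjusted p = 0.876). Of the exons of Inppl1, 18.8% overlap the antisense transcript Gm10602.

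Of the FOXO genes, Foxo4 stayed below the filter at 3.17 to 9.11 normalized counts in aged and 0 to 14.0 in young samples, and Foxo6 at up to 2.05 in aged and 2.46 in young samples. Textbook FOXO targets, 19 of 23 tested with Irs2 and Insr among them, showed a median of -0.02 for this difference. Of the 19, 5 (26.3%) had an unadjusted limma p under 0.05, against 10.8% of all tested genes, and none passed after adjustment. As the lists were chosen with earlier results of these data known, this share describes the list and is no test of an excess. These 5 were split, with Bcl6 and Cdkn1a higher in aged samples and Txnip, Fbxo32 and Bcl2l11 lower. Bcl6, a transcriptional repressor, averaged 774 ± 142 in aged and 494 ± 175 in young samples (SD, n = 6 each), a log2 fold change of 0.70 (95% interval 0.30 to 1.09, limma adjusted p = 0.078), with 2 aged samples above all young ones. Its adjusted p was 0.0233 by DESeq2 on 8 samples, and by limma 0.0199 without young 1 and 0.0475 without young 2, the young samples highest in Bcl6. Txnip, which binds thioredoxin and limits glucose uptake, averaged 11068 ± 1824 in aged and 13561 ± 1255 in young samples (SD, n = 6 each; log2 fold change -0.31, limma adjusted p = 0.178), with 5 of 6 aged samples below all young ones. Of its exons, 19.4% overlap the antisense transcript Gm15441. Fbxo32, the ubiquitin ligase atrogin-1 of muscle atrophy, had a log2 fold change of -0.24 (limma adjusted p = 0.366), and Cdkn1a, the cell cycle inhibitor p21, of 0.40 (limma adjusted p = 0.381).

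The other mTOR complex subunits were tested with the 3 members, 11 of 11, at a median of 0.04. Prr5, the mTORC2 subunit Protor-1, averaged 186 ± 28.3 in aged and 255 ± 34.0 in young samples (SD, n = 6 each), a log2 fold change of -0.45 (95% interval -0.74 to -0.17, limma adjusted p = 0.124). Its values were 161 to 240.3 in aged and 201 to 299 in young samples, and 5 of 6 aged samples lay below all young ones. Aged 6 was the exception, and without it the limma adjusted p was 0.0476. The related Prr5l had a log2 fold change of -0.19 (limma adjusted p = 0.809) and Mapkap1, the mTORC2 subunit Sin1, one of 0.10 (limma adjusted p = 0.707). Of the TSC and Rheb genes, 6 of 7 were tested, at a median of 0.08. Tbc1d7, the third subunit of the TSC complex, averaged 180.5 ± 37.8 in aged and 229.9 ± 29.8 in young samples (SD, n = 6 each; log2 fold change -0.37, limma adjusted p = 0.376), with 5 of 6 aged samples below all young ones, while Tsc2 had a log2 fold change of 0.11 (limma adjusted p = 0.835) and shares 7.2% of its exons with Pkd1.

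Amino acid sensing genes of the lysosome, 24 of 27 tested, had a median of 0.05 and 0 with an unadjusted limma p under 0.05, against 10.8% of all tested genes. Depdc5, a subunit of the GATOR1 complex that restrains mTORC1, was at 823 ± 121 in aged and 694 ± 91.1 in young samples (log2 fold change 0.24, limma adjusted p = 0.463), Kptn, of the KICSTOR complex that holds GATOR1 at the lysosome, at 189 ± 15.3 in aged and 219 ± 18.2 in young samples (limma adjusted p = 0.579), and Seh1l had a log2 fold change of 0.14 (limma adjusted p = 0.607). Substrates and outputs of mTORC1, 15 of 16 tested, had a median of 0.06. Ulk1, the autophagy kinase that mTORC1 inhibits, averaged 2184 ± 248 in aged and 1894 ± 241 in young samples (SD, n = 6 each; log2 fold change 0.21, limma adjusted p = 0.438). The translation regulator Larp1 had a log2 fold change of 0.18 (limma adjusted p = 0.486), and Rps6kb1, the S6 kinase, one of 0.18 (limma adjusted p = 0.506).

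**Figure D5:**
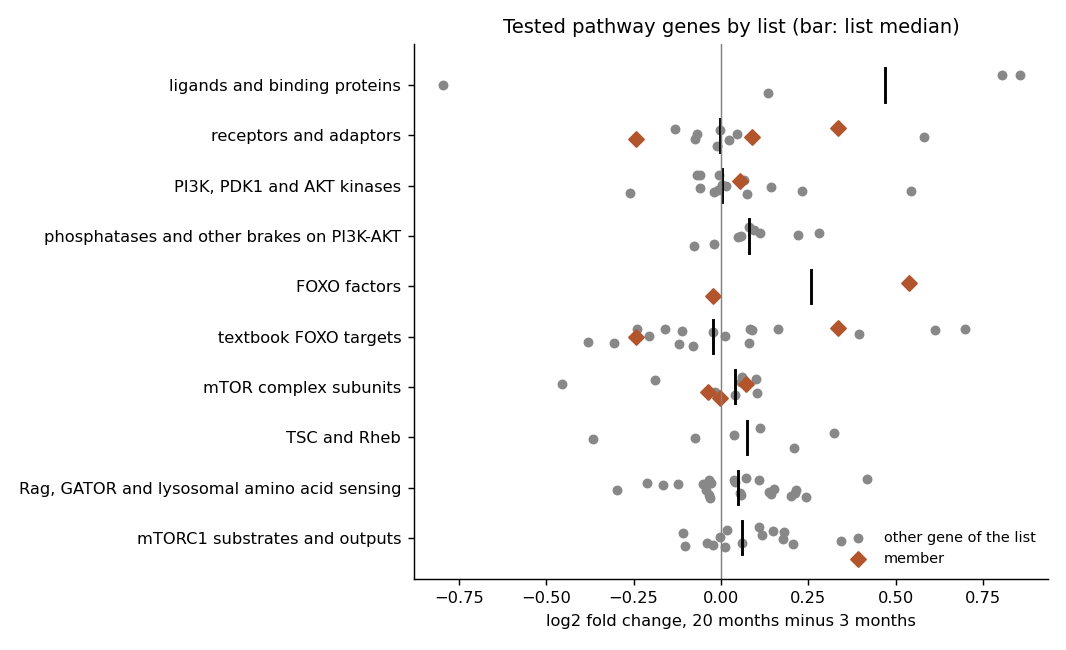
Log2 fold change, 20 months minus 3 months, of every tested pathway gene by list; diamonds are the members, grey points the other genes, and black bars the list medians with the members included. The medians of lists with 6 or more tested genes lie between -0.02 and 0.08. The smaller lists had medians of 0.47 (ligands and binding proteins, 4 tested) and 0.26 (FOXO factors, 2 tested). No point passed the limma test at an adjusted p under 0.05.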

How the data were processed

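RNA was measured by sequencing in 12 samples of sorted microglia, 6 per age, from 16 libraries. Per the labels' protocols, cDNA was made with the SmartSeq v4 kit and libraries with Nextera XT, which do not mark the strand, and read on a NovaSeq instrument. The labels' design text names bcl2fastq for demultiplexing, fastx_trimmer for trimming, STAR for alignment, samtools for counting and DESeq2. The submitters' processing notes name mm10. Versions and gene models were not given in the sources used here. The authors deposited a normalized count per gene and sample, a signal that is never negative. For the 8 single-library samples, 100% of values were whole multiples of 1 step within 0.1 reads, and dividing by the step gave the recovered reads. In the 4 columns of samples with 2 libraries 21.7% to 30.7% were, so their reads were not recovered. Those libraries were combined by the authors, so a technical replicate is never counted as a sample.

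Values were taken as log2(normalized count + 1), on which fold changes of low genes are understated, and fitted with limma 3.58.1 (R 4.3.3), allowing the variance to follow the mean. The count tests, edgeR 4.0.16 (quasi-likelihood, TMM) and DESeq2 1.42.0, ran on the recovered reads of aged 1, 2, 4 and 5 and young 1, 3, 5 and 6. All adjusted p-values of genes are Benjamini-Hochberg values over all tested genes, with a threshold of 0.05. Ratios and correlations were tested by exact permutation with numpy 2.4.6, over 924 assignments and 518400 within-age orders. Marker sums are CPM of the table's total, computed from the deposited normalized counts. The fits were tested on simulated data with known changes. Overlapping exons and lengths come from GENCODE M21, promoters from RefSeq. The text names all 9 members, any list gene past the threshold, the 3 other tested genes of each list with the smallest limma p, and the 3 genes most like the member with the smallest p; Klf4, Cdkn1a, Bcl2l11 and genes under the filter were added after their values were seen. The values of 1 gene that this rule names are not reported here. The members and lists were chosen with earlier results of these data known. Alternatives were other pseudocounts, filters, scalings and tests, a replicate block, and leaving out samples.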

Additional observations from a re-analysis of the deposited data

Results flagged for a closer look

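Each member and age was searched for a single sample far from the other 5, by the gap to its neighbour over the range of the group, set against Dixon's critical value. In 24 groups checked, which include the within-sample ratios, 2 samples passed it, and chance alone passes about 1 group in 20. For Rictor in aged samples, aged 2 stood low at 1229.8 normalized counts, with the others between 1427.3 and 1505.6 and a gap of 0.716 of the range. For Foxo1 in young samples, young 3 stood high at 2336.5, with the others between 1790.9 and 1961.5 and a gap of 0.687 of the range. Without young 3, the log2 fold change of Foxo1 was 0.03, against -0.02 with it.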

How the results depend on the processing

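In all 24 alternatives, 0 of 9 members passed the limma, edgeR or DESeq2 test. Over these, the adjusted p was never below 0.279 for Foxo3, 0.317 for Irs2 and 0.474 for Insr, and these genes and Rictor kept their direction; the ratios kept theirs in 16 alternatives each. For the other members the sign was not stable, and the cause was not tested. The log2 fold change of Rptor was 0.00022 with TMM scaling, 0.015 with CPM scaling, 0.080 with limma on 8 samples, 0.084 with edgeR and 0.084 with DESeq2, and that of Mtor 0.00796, 0.043 and 0.039 in the last 3 of these. Without aged 5 and aged 6, whose strain label differs, it was -0.0097 for Akt1 and 0.00377 for Foxo1. Leaving out 1 sample gave -0.083 to 0.21 for Igf1r, -0.081 to 0.027 for Foxo1, -0.16 to 0.057 for Mtor and -0.060 to 0.055 for Rptor. Foxo1 turned without aged 4 or young 3, Mtor without aged 4, aged 6 or young 1, and Rptor without aged 3, 4 or 6 or young 1, 2 or 6.

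Over all genes, 147 were higher and 53 lower in aged samples. On the 8 samples with 1 library there were 67 higher and 11 lower with limma, 75 higher and 15 lower with edgeR, and 185 higher and 50 lower with DESeq2. Leaving out 1 sample gave 101 to 174 higher and 27 to 60 lower. Other pathway genes called were 1 with DESeq2 (Bcl6), and 0 to 1 without 1 sample: Bcl6 without young 1 or young 2, Prr5 without aged 6. Deviations of samples with the same number in both ages correlated with r between -0.121 and 0.107 over all tested genes. The labels do not say whether shared numbers pair samples, and these correlations cannot decide it. With a replicate block, 115 genes were higher and 30 lower, and 2 of 6 aged samples correlated best with their own number. Rescaling moved the median of all genes to 0.00345 (TMM) and 0.018 (CPM).

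Depth limits Foxo3 most, at 12 reads in young 1. With 6 samples per age, the intervals of Insr, Igf1r, Irs2, Foxo3 and Mtor span changes of 20% or more in a direction, so their missed thresholds do not show equal levels. RNA levels say nothing of phosphorylation or of where the proteins are.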
